A study of Mus musculus with 17 samples.

Results

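Collagen chains are the polypeptides that wind together in triplets to form the collagen molecules of the extracellular matrix. Every gene of the mouse bulk RNA-seq table whose symbol is Col, a number, a and a number was taken as a collagen chain gene, whatever its level or change. The rule found 44 of the 20328 genes of the table, and all 44 had enough reads to be tested. They were sorted by the known structure of their proteins into 11 fibrillar chains, 6 chains of basement membrane collagen IV, 6 chains of collagen VI, 3 network chains of collagens VIII and X, 9 fibril-associated chains (FACIT), 4 transmembrane chains, 2 multiplexins and 3 others.

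The samples were whole-tissue or single-cell preparations labelled brain from ICR mice of wild-type genotype, female per the methods and 8 weeks old at surgery. Healthy controls (sham) were compared with a 6-OHDA-induced PD model, in which the toxin 6-hydroxydopamine, which kills dopaminergic neurons, was injected on 1 side into the substantia nigra at 10 µg/µL in 2 µL. The NDST3-treated PD model received the same lesion and, 5 days later, 2 µL of an adeno-associated virus (AAV9) carrying human NDST3, a heparan sulfate-modifying enzyme, under the CMV promoter, which is not specific to a cell type. Lesioned mice without NDST3 received saline per the methods, so the vector and its cargo cannot be told apart here. RNA-seq had 2 sham libraries, 1 6-OHDA library and 2 NDST3 libraries. H3K27ac CUT&RUN, which maps an acetylated histone found at active promoters, had 2 libraries a group that the deposited table holds as 1 column a group. ATAC-seq, which maps open chromatin, had 1 library a group, and the scRNA-seq table held 1 column a cluster for each of the 6-OHDA and NDST3 groups. The sources used here do not say how many animals stand behind a library.

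Collagens give tissues their tensile strength and their attachment surfaces. In the brain the parenchyma is poor in fibrillar collagen, which is made mainly by fibroblasts of the meninges and around larger vessels, whereas collagen IV forms the core of the basement membrane that wraps every vessel and the brain surface. After injury to the central nervous system, collagen-producing perivascular cells can contribute to a fibrotic scar.

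The total counts ran from 51003699 to 70533326 per library, and the smallest count of any collagen chain gene in any library was 4. By counts scaled to library size, sham 1 had more of 41 of the 44 genes than sham 2, and NDST3 2 had more of 36 than NDST3 1. The same counts over all genes were not made. The summed collagen level differed between the libraries of a group, as given below. Several libraries stood apart in markers of other cells and regions. On the scale of counts scaled to library size (CPM), the 8 dopaminergic neuron markers summed to 734 and 692 in sham, to 24 in 6-OHDA and to 127 and 91.3 in NDST3. The 9 choroid plexus epithelium markers summed to 1180 CPM in NDST3 2 and to between 25.8 and 72.8 in the other libraries. The 6 hypothalamus markers summed to 171 CPM in the 6-OHDA library and to between 2.85 and 9.30 elsewhere, and the 4 raphe markers to 2.48 in that library and to between 111 and 310 elsewhere. The human NDST3 cDNA is not a gene of the mouse table, so its delivery could not be checked there.

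Collagen transcripts as a whole were highest in the 6-OHDA library. Sham libraries spent 0.0868% and 0.0524% of their counts on them, NDST3 libraries 0.0582% and 0.0819%, and the 6-OHDA library 0.275%. On a scale per length of transcript (FPKM), the 44 levels summed to 149 and 86.9 in sham, 474 in 6-OHDA and 101 and 144 in NDST3. The sham and NDST3 ranges overlapped, and the 6-OHDA value lay above both. The 8 most abundant chains of each library held 70.6% of the summed collagen FPKM in the 6-OHDA library and between 51.6% and 56.1% in the others. In bulk tissue, fewer cells of a type and less RNA per cell cannot be told apart.

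**Figure D1:**
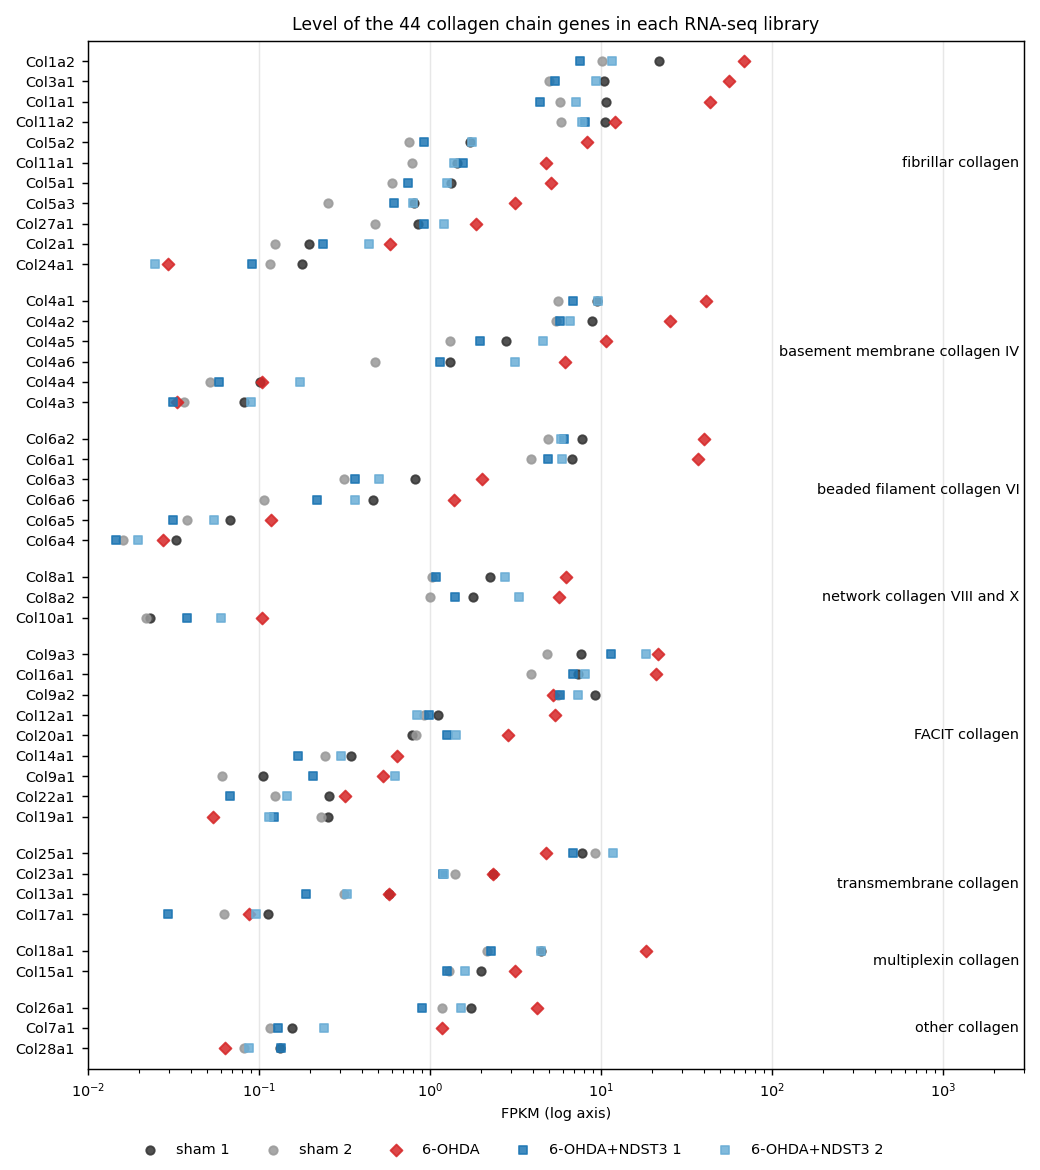
Level of every collagen chain gene (rows, grouped by structural class) in each of the 5 RNA-seq libraries, in FPKM on a log10 axis, with 1 point per library marked by library. By CPM, the 6-OHDA library is the highest of the 5 for 35 of the 44 genes and the lowest for 4. On the FPKM scale shown, NDST3 2 is the highest for Col9a1 (0.630 against 0.535 in 6-OHDA).

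To ask how collagen expression differed in the PD model, the 6-OHDA library was compared with the 2 sham libraries. By the threshold the study used for its gene lists (2-fold or more and an unadjusted p under 0.05, here from edgeR), 29 of the 44 collagen chain genes rose, against 14.4% of the 19300 genes tested. Only Col19a1 fell by that rule, against 10.1% of all genes. With p-values adjusted over all genes (Benjamini-Hochberg) and a threshold of 0.05, 26 rose and 1 fell, against 18.8% and 17.1% of all genes. The median log2 difference was 1.83 over the collagen chain genes and 0.00 over all genes tested. By CPM, the 6-OHDA library was the highest of the 5 for 35 collagen chain genes, against 38.9% of all genes. It was the lowest for 4, against 37.9%. Among the 27 genes with a mean of at least 1 FPKM over the libraries 22 rose by the fold rule, and among the 17 weaker genes 7 did. Shares of all genes at the same levels were not counted, so this split cannot be read as particular to collagen chain genes.

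This comparison has 1 library on the 6-OHDA side, which was assumed to vary like the libraries of the other groups, and its p-values measure the spread between the sham and between the NDST3 libraries, which may be technical. Without sham 1 or without sham 2 each group of this comparison holds 1 library. The adjusted calls in edgeR were then lost over the whole table, and not only for collagen chain genes. The number of collagen chain genes called by the fold rule moved with the library left out, as given below.

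**Figure D2:**
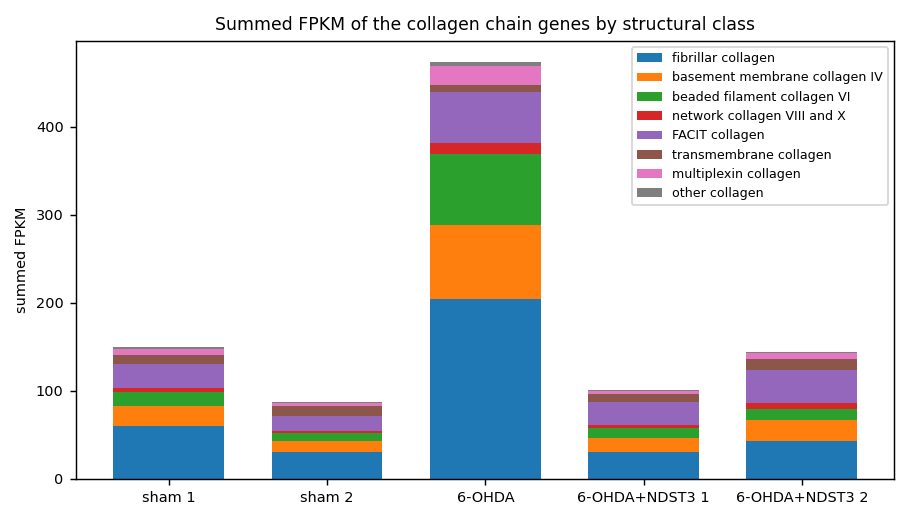
Stacked bars of summed FPKM of the collagen chain genes (linear axis from 0), 1 bar for each of the 5 RNA-seq libraries, with 1 colour per structural class. The 6-OHDA bar reaches 474 FPKM, of which 204 are fibrillar, and the others between 86.9 and 149.

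The fibrillar chains, which form the banded fibrils of skin, bone and meninges, were the most abundant class and rose in 9 of 11 cases. Their summed level was 60.3 and 30.0 FPKM in sham, 204 in 6-OHDA and 30.5 and 42.8 in NDST3. Col1a2, which encodes the alpha 2 chain of collagen I, was the collagen chain gene of highest level, with 22 and 10.2 FPKM in sham, 69.0 in 6-OHDA and 7.52 and 11.6 in NDST3. The 6-OHDA value lay 3 or more times above every other library, and the sham and NDST3 values overlapped. Its log2 difference was 2.09 ± 0.44 (SE) against sham (edgeR adjusted p = 0.0228) and -2.86 ± 0.45 in NDST3 against 6-OHDA (edgeR adjusted p = 0.034). The windows around the start sites of Col1a2 and of Col3a1, from 250 bases before to 50 after the start (RefSeq, GRCm38.p6, strand +), are shown because both genes are in the same fibrils and both rose, while their start regions differ in letters. Capitals mark 3 motifs on either strand: the CCAAT box, the GC box, which is read GGGCGG, and the TATA box, which was searched as TATAAA.
Col1a2, chr6:4505368-4505667: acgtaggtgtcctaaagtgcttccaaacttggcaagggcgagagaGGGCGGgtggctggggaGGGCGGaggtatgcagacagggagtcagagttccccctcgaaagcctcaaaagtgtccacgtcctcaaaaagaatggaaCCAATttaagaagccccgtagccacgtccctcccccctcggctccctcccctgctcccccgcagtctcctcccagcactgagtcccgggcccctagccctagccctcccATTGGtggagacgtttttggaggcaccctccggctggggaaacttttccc
Col3a1, chr1:45311288-45311587: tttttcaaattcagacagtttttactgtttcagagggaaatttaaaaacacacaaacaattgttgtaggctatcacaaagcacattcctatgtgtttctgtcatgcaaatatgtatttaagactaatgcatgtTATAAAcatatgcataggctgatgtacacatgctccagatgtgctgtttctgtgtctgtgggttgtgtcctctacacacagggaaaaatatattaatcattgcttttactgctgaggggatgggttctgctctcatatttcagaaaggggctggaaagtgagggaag
The Col1a2 window had 61.0% G and C and 13 CpG, with 2 CCAAT and 2 GC boxes. The Col3a1 window had 37.7% G and C and 0 CpG, and of the 3 motifs held only TATAAA.

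Col3a1, the single chain of collagen III, which is found with collagen I in soft tissue, had 10.4 and 4.95 FPKM in sham, 56.1 in 6-OHDA and 5.40 and 9.35 in NDST3. The log2 difference was 2.86 ± 0.47 against sham (edgeR adjusted p = 0.0126) and -2.94 ± 0.47 in NDST3 against 6-OHDA (edgeR adjusted p = 0.0344), the largest fall of any collagen chain gene in these libraries. Col1a1, the alpha 1 chain of collagen I, had 10.7 and 5.81 FPKM in sham, 43.3 in 6-OHDA and 4.42 and 7.14 in NDST3, with a log2 difference of 2.38 ± 0.39 against sham (edgeR adjusted p = 0.0126). For all 3 genes the 6-OHDA library was separate from the other 4, among which sham and NDST3 overlapped. The collagen V chains, which set fibril diameter, rose together, with log2 differences against sham of 2.39 for Col5a1, 2.74 for Col5a2 and 2.54 for Col5a3. Col11a1, a related chain, rose by 2.08, Col2a1, the cartilage collagen, by 1.85, and Col27a1 by 1.43. Col11a2 had 10.5 and 5.89 FPKM in sham and 12.1 in 6-OHDA and passed neither rule. Col24a1 was weak, with 0.180 and 0.116 FPKM in sham, 0.0294 in 6-OHDA and 0.0910 and 0.0247 in NDST3, and its log2 difference of -2.28 ± 0.94 against sham did not pass (edgeR unadjusted p = 0.0607).

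Of the collagen IV chains, the sheet-forming collagens of basement membranes, the 4 that make up most vessel walls and smooth muscle sheaths rose and the other 2 did not pass. Col4a1 had 9.56 and 5.64 FPKM in sham, 41.3 in 6-OHDA and 6.90 and 9.64 in NDST3. Its partner Col4a2 had 8.86 and 5.48, 25.5, and 5.81 and 6.63. Both were highest in the 6-OHDA library by more than 2-fold over any other, and sham and NDST3 overlapped. The log2 difference against sham was 2.43 ± 0.31 for Col4a1 (edgeR adjusted p = 0.00889) and 1.82 ± 0.25 for Col4a2 (edgeR adjusted p = 0.00952). The NDST3 libraries differed from 6-OHDA by -2.33 ± 0.31 and -2.04 ± 0.25, with an edgeR adjusted p of 0.032 for each. The pair lies head to head. By the ends of the annotated genes its start sites are 84 bases apart, and by the start sites used for the windows 21. The 2 start windows share 78 bases. They are shown because 1 stretch of sequence holds both starts, with the same motifs in capitals.
Col4a1, chr8:11312777-11313076, strand -: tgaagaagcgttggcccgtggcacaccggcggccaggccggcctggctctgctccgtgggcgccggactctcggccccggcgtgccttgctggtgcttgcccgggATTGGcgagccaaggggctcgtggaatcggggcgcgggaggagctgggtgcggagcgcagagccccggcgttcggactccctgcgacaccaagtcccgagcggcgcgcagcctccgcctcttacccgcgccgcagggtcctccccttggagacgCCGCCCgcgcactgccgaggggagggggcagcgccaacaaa
Col4a2, chr8:11312555-11312854, strand +: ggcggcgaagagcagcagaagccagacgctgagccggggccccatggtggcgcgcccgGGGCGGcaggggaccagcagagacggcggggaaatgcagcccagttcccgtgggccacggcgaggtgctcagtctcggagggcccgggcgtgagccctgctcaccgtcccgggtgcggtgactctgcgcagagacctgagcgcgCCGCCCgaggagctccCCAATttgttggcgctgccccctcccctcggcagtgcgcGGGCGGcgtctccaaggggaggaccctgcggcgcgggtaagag
Each window had 1 CCAAT box, and Col4a1 had 1 GC box and Col4a2 had 3. Since the genes meet on opposite strands and the strand setting of the counting is not given in the sources used here, reads of the shared end cannot be assigned with certainty.

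Col4a5, the X-linked chain of kidney and smooth muscle basement membranes, had 2.81 and 1.31 FPKM in sham, 10.7 in 6-OHDA and 1.98 and 4.59 in NDST3. Col4a6, its neighbour, had 1.32 and 0.478, 6.16, and 1.14 and 3.13. Against sham they rose by 2.37 ± 0.57 and 2.82 ± 0.77 on the log2 scale (edgeR adjusted p = 0.0326 and 0.0434). Sham and NDST3 overlapped for Col4a5 and Col4a6, with NDST3 2 the highest of those 4 libraries. Without sham 2, Col4a6 lost its call. Col4a3 and Col4a4, the chains of the glomerular membrane, stayed under 0.18 FPKM in each library, with log2 differences of -0.81 and 0.48 that did not pass.

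The chains of collagen VI, which forms beaded filaments around cells, rose in 4 of 6 cases, and NDST3 was lower than 6-OHDA in 5. Col6a1 had 6.77 and 3.91 FPKM in sham, 36.9 in 6-OHDA and 4.91 and 5.95 in NDST3. Col6a2 had 7.78 and 4.88, 40.4, and 6.08 and 5.89. The 6-OHDA values lay more than 5-fold above the next library, and NDST3 lay within the sham range for both genes. The log2 differences against sham were 2.78 ± 0.29 and 2.67 ± 0.24, and in NDST3 against 6-OHDA -2.77 ± 0.29 and -2.75 ± 0.24, with edgeR adjusted p-values of 0.00823 for both in the first comparison and 0.032 for both in the second. Col6a3, the third chain of the usual trimer, was at 2.02 FPKM in 6-OHDA and between 0.314 and 0.820 elsewhere, and rose by 1.67 ± 0.44. Col6a6 rose by 2.28 ± 0.79 by the fold rule only, and Col6a5 and Col6a4, at most 0.118 FPKM, did not pass.

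All 3 network chains rose by the fold rule. Col8a1 and Col8a2, the chains of the collagen VIII lattice of vessel walls and of the corneal endothelium, had 6.23 and 5.67 FPKM in 6-OHDA and at most 3.32 in the other libraries, with log2 differences against sham of 1.92 ± 0.62 and 2.01 ± 0.54. NDST3 2 was the second highest library for both genes, with 2.75 and 3.32 FPKM. Col10a1, the collagen of growth plate cartilage, had 18 counts in the 6-OHDA library and its rise of 2.05 ± 0.57 rests on those few reads.

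The FACIT chains, which sit on the surface of fibrils, went in both directions. Col12a1, which links collagen I fibrils, had 1.11 and 0.922 FPKM in sham, 5.43 in 6-OHDA and 0.988 and 0.842 in NDST3, and its rise of 2.35 ± 0.18 had the smallest unadjusted p of the 44 genes (edgeR adjusted p = 0.00823). Against 6-OHDA it fell in NDST3 by 2.51 on the log2 scale, to within or below the sham range. Col16a1 had 7.36 and 3.92 FPKM in sham, 21.1 in 6-OHDA and 6.89 and 8.05 in NDST3, and rose against sham by 1.89 ± 0.32. Col20a1 rose by 1.44 ± 0.19 and Col14a1 by 1.10 ± 0.42, while Col22a1 did not pass.

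Collagen IX, a cartilage collagen of 3 chains that is found at low level in other tissues, split by chain. Col9a3 had 7.70 and 4.85 FPKM in sham, 21.7 in 6-OHDA and 11.5 and 18.4 in NDST3. Both NDST3 libraries lay above both sham libraries. The log2 difference was 1.78 ± 0.34 in 6-OHDA against sham (edgeR adjusted p = 0.0175) and -0.54 ± 0.34 in NDST3 against 6-OHDA (edgeR adjusted p = 0.302). Col9a1, much weaker, had 0.105 and 0.0611 FPKM in sham, 0.535 in 6-OHDA and 0.207 and 0.630 in NDST3, and rose by 2.62 ± 0.71 against sham. Its call was lost without sham 1 and without sham 2. Col9a2 had 9.25 and 5.59 FPKM in sham, 5.28 in 6-OHDA and 5.76 and 7.40 in NDST3, and did not pass in any comparison. The level of Col9a2 per level of Col9a3 was therefore 1.20 and 1.15 in sham, 0.243 in 6-OHDA and 0.502 and 0.403 in NDST3, with no overlap between the groups.

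Col19a1, a FACIT chain that neurons can express, was the only 1 of 6 chains lower in 6-OHDA against sham that passed the fold rule. It had 0.256 and 0.232 FPKM in sham, 0.0541 in 6-OHDA and 0.122 and 0.114 in NDST3, so that the 3 groups did not overlap. It fell by 2.13 on the log2 scale against sham, with an SE of 0.35 (edgeR adjusted p = 0.0127). In NDST3 against 6-OHDA it was the only chain that rose by the fold rule, by 1.12 ± 0.34 (edgeR unadjusted p = 0.0221, adjusted p = 0.082), and in NDST3 against sham it was lower by the same rule, at -1.01 ± 0.26 (edgeR unadjusted p = 0.0111, adjusted p = 0.217). The 8 neuron markers had the same order, with summed levels of 6255 and 7031 CPM in sham, 2599 in 6-OHDA and 5562 and 5052 in NDST3, and their part in the Col19a1 result was not tested.

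None of the 4 transmembrane chains, which are anchored in the cell surface, passed the fold rule in any of the 3 comparisons. The class summed to 10.8 and 11 FPKM in sham, 7.78 in 6-OHDA and 8.27 and 13.4 in NDST3. Col25a1, a neuronal chain known for its binding to amyloid, held most of it, with 7.75 and 9.25 FPKM in sham, 4.76 in 6-OHDA and 6.86 and 11.7 in NDST3. Its 6-OHDA value was the lowest of the 5, and the log2 difference was -0.86 ± 0.33 against sham and 0.95 ± 0.33 in NDST3 against 6-OHDA (edgeR adjusted p = 0.101 and 0.107). Col23a1 had 2.34 and 1.41 FPKM in sham, 2.35 in 6-OHDA and 1.19 and 1.21 in NDST3, and Col13a1 and Col17a1 stayed under 0.6.

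Of the multiplexins, which carry heparan or chondroitin sulfate and sit in basement membranes, Col18a1, the source of endostatin, had 4.47 and 2.17 FPKM in sham, 18.3 in 6-OHDA and 2.28 and 4.44 in NDST3. It rose by 2.41 ± 0.52 against sham (edgeR adjusted p = 0.0244) and differed by -2.36 ± 0.52 in NDST3 against 6-OHDA (edgeR adjusted p = 0.0466). Col15a1 had a log2 difference of 0.95 ± 0.29 against sham, under 2-fold. Among the others, Col7a1, the anchoring fibril collagen of epithelia, showed the largest rise of all 44 genes from a low level, with 0.157 and 0.116 FPKM in sham, 1.18 in 6-OHDA and 0.130 and 0.239 in NDST3, a log2 difference of 3.09 ± 0.40 (edgeR adjusted p = 0.00905). Col26a1 rose by 1.51 ± 0.35, and Col28a1, a weak chain linked to glia of peripheral nerve, did not pass.

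To ask how the NDST3-treated PD model differed from the PD model, the 2 NDST3 libraries were compared with the same single 6-OHDA library, so this comparison and the one above share it and are not independent. By the fold rule 24 of the 44 collagen chain genes fell, against 8.37% of all genes, and 1 rose (Col19a1), against 7.3%. With the adjusted edgeR p, 15 fell, against 6.59% of all genes, and 0 rose, against 9.06%. Of the genes that were higher in NDST3, Col19a1 and Col25a1 had an unadjusted p under 0.05. DESeq2 called 1 collagen chain gene higher by its adjusted p, beside 2804 of 20328 genes. The median log2 difference was -1.46 over the collagen chain genes and 0.00 over all genes. By class, 7 of 11 fibrillar, 3 of 6 collagen IV, 5 of 6 collagen VI, 1 of 3 network, 4 of 9 FACIT, 0 of 4 transmembrane, 2 of 2 multiplexin and 2 of 3 other chains fell. Leaving out sham 1, sham 2 or NDST3 1 leaves 1 library in the sham or the NDST3 group. The adjusted edgeR calls were then lost over nearly the whole table, and not only for collagen chain genes. The range of the fold rule count with 1 library left out is given below.

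**Figure D3:**
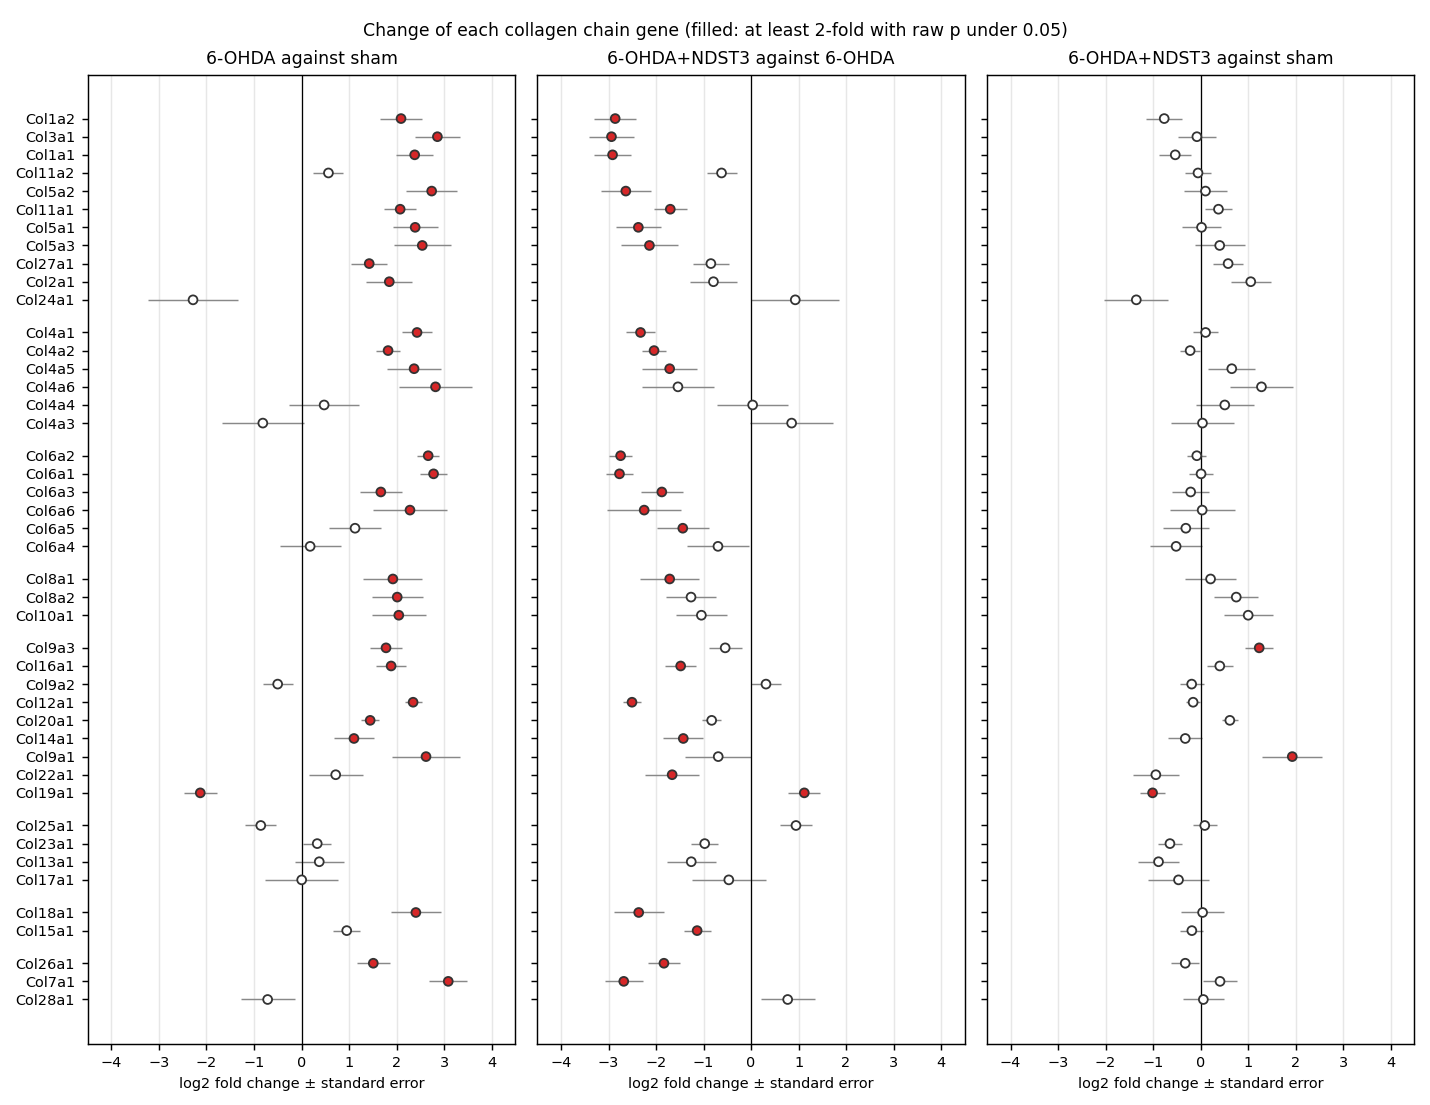
Log2 difference with its standard error for each of the 44 collagen chain genes in the 3 RNA-seq comparisons, 1 panel each, with genes in the same order, grouped by class and filled where the fold rule called them. Most points lie right of 0 in 6-OHDA against sham (median 1.83), left of 0 in NDST3 against 6-OHDA (median -1.46) and around 0 in NDST3 against sham (median 0.03).

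The NDST3 and sham libraries were then compared with each other, the comparison that leaves the 6-OHDA library out of the difference. By the fold rule 2 collagen chain genes were higher, Col9a3 and Col9a1, against 4.78% of all genes, and 1 was lower, Col19a1, against 1.08%. No collagen chain gene, and 0% of all genes, passed the adjusted edgeR threshold, while 5 collagen chain genes and 2744 genes of the table had an unadjusted p under 0.05. By its adjusted p, DESeq2 called 1 collagen chain gene higher and 0 lower, beside 845 higher and 203 lower of 20328 genes. The differences were 1.23 ± 0.29 on the log2 scale for Col9a3 (edgeR unadjusted p = 0.00852, adjusted p = 0.199) and 1.93 ± 0.63 for Col9a1 (edgeR unadjusted p = 0.0281, adjusted p = 0.289). The 2 further genes with an unadjusted p under 0.05 were Col20a1, 0.62 higher, and Col23a1, 0.65 lower. By CPM, both NDST3 libraries lay above both sham libraries for 6 of the 44 genes, against 26.5% of all genes. They lay below both for 5, against 22.4%. The median log2 difference was 0.03, and it ran from -0.36 without NDST3 2 to 0.45 without sham 1. The number of collagen chain genes called by the fold rule also moved with the library left out, as did the number over all genes. A p that misses the threshold does not show that NDST3 and sham were alike.

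The proportions of chains that assemble into 1 molecule were compared. Col1a1 per Col1a2, whose products join at 2 to 1 in collagen I, was 0.488 and 0.569 in sham, 0.628 in 6-OHDA and 0.587 and 0.616 in NDST3 on the FPKM scale. Col4a2 per Col4a1 was 0.926 and 0.972 in sham, 0.618 in 6-OHDA and 0.842 and 0.687 in NDST3. For the collagen IV pair the 6-OHDA library was the lowest and sham the highest, without overlap. The collagen I pair had the reverse order, with 6-OHDA the highest and sham the lowest, also without overlap. Col6a2 per Col6a1 was 1.15 and 1.25 in sham, 1.09 in 6-OHDA and 1.24 and 0.990 in NDST3, with overlap of all groups.

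Several collagen chain genes are neighbours on their chromosome in the reference annotation (GRCm38.p6), and neighbours did not always move together in 6-OHDA against sham. Col3a1 and Col5a2 on chromosome 1, 24624 bases apart, differed by 2.86 and 2.74 on the log2 scale. Col6a1 and Col6a2 on chromosome 10, 85161 bases apart, differed by 2.78 and 2.67, and Col4a5 and Col4a6 on chromosome X, 1274 bases apart, by 2.37 and 2.82. In contrast Col9a1 and Col19a1 on chromosome 1, 4944 bases apart at their 3′ ends, differed by 2.62 and -2.13. In the chromosome 9 cluster the difference was 2.28 for Col6a6, 1.13 for Col6a5 and 0.18 for Col6a4.

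Start windows were on hand for 35 of the 44 genes. A GC box was found in 22 of them (62.9%), against 38.2% of the 27025 genes with a window of the same length. A CCAAT box was found in 13 (37.1% against 41.1%) and TATAAA in 5 (14.3% against 15.7%), each searched on both strands. The windows held a median of 11.5 CpG against 7 and 59.8% G and C against 52.7%. Of the 22 genes with a window that rose by the fold rule in 6-OHDA against sham, 16 had a GC box, 10 a CCAAT box and 2 a TATA box. A match of letters is a description of the window and not a site of binding.

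Genes whose proteins make, trim, bind or degrade collagen were examined as lists, whose counts by the fold rule stand beside 14.4% of all genes higher in 6-OHDA against sham and 8.37% lower in NDST3 against 6-OHDA. Of 18 genes for biosynthesis and folding, 12 rose and 0 fell by the fold rule in 6-OHDA against sham, with a median log2 difference of 1.11 against 0.00 over all genes. The largest rises were of Fkbp10 (2.21) and P3h2 (2.17), which modify or fold the new chains, and Serpinh1 (2.11), the collagen chaperone HSP47. Serpinh1 had 14.1 and 10.4 FPKM in sham, 53.5 in 6-OHDA and 12.8 and 13.7 in NDST3, with sham and NDST3 overlapping. Of the 18, 6 fell in NDST3 against 6-OHDA and 0 rose by the fold rule, with a median of -0.78. Of 13 genes for propeptide cleavage and crosslinking, 7 rose, led by the lysyl oxidases Lox (3.36) and Loxl2 (2.58), and Tll1, a propeptide-cleaving protease, fell by 1.56. Of these 13, 6 fell in NDST3 against 6-OHDA and 1, Pcolce2 (1.05), an enhancer of propeptide cleavage, rose.

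Of 12 genes of collagen breakdown and its inhibitors, 6 rose in 6-OHDA against sham, the largest being Mmp3 (3.88), a stromelysin, Timp1 (3.77), a protease inhibitor, and Mmp2 (2.85), a gelatinase. Against 6-OHDA 5 fell in NDST3, and against sham 3 were higher and 1 was lower, beside 4.78% and 1.08% of all genes. Timp1 had 3.11 and 2.03 FPKM in sham, 35.7 in 6-OHDA and 6.53 and 13.6 in NDST3, so NDST3 lay between the other groups. Of 9 collagen receptors 7 rose, including the integrin chain Itga2 (3.0), which is weak with 11 counts in sham 2, Lair1 (2.61), an inhibitory receptor of leukocytes, and Itgb1 (1.62), and 6 fell in NDST3 against 6-OHDA. Of 11 basement membrane partners 7 rose, with Nid2 (2.02), Nid1 (1.76) and Hspg2 (1.73) the largest, and 9 fell in NDST3 against 6-OHDA. Of 7 small leucine-rich proteoglycans, which coat fibrils, 4 rose, including Lum (2.76), Bgn (2.13) and Dcn (2.03), and 5 fell.

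Marker lists of collagen-producing cells and of other cells were set beside these results, with the same shares of all genes as above. The 10 fibroblast or meningeal markers summed to 919 and 385 CPM in sham, 1428 in 6-OHDA and 253 and 400 in NDST3. Of the 10, 4 rose in 6-OHDA against sham and 7 fell in NDST3 against 6-OHDA by the fold rule, and in NDST3 against sham 4 were lower, beside 1.08% of all genes. Dcn and Lum are on this list and on that of the small proteoglycans. The 6 smooth muscle markers summed to 120 and 99.2, 314, and 48.8 and 57.9 CPM, the 8 pericyte markers to 466 and 306, 498, and 265 and 320, and the 8 endothelial markers to 288 and 251, 387, and 227 and 255. The 7 monocyte or macrophage markers ran further apart, at 201 and 41.6 CPM in sham, 2885 in 6-OHDA and 636 and 1088 in NDST3, and the 7 microglia markers at 493 and 371, 2760, and 1003 and 1593. The 8 astrocyte markers summed to 5166 and 4230, 11450, and 6513 and 7282. By the fold rule, 3 of 6 smooth muscle, 1 of 8 pericyte, 2 of 8 endothelial, 3 of 7 monocyte or macrophage, 6 of 7 microglia and 3 of 8 astrocyte markers rose in 6-OHDA against sham. Of the same lists 5, 1, 3, 4, 2 and 2 fell in NDST3 against 6-OHDA. None of the 9 choroid plexus or 7 oligodendrocyte markers was called in either comparison by this rule with edgeR, and at an unadjusted p under 0.05 the counts were 0 choroid plexus markers in both and 1 oligodendrocyte marker in 6-OHDA against sham. The median log2 difference of the choroid plexus markers was -0.10 in 6-OHDA against sham and 1.68 in NDST3 against 6-OHDA. Of 8 neuron markers 6 fell in 6-OHDA against sham, beside 10.1% of all genes. The count table lists no gene with a count of 0 in any library, and 7 of the 8 microglia markers are in it. The part of these cells and of the region differences above in the collagen results was not tested. Sham 1 was above sham 2 in the fibroblast and choroid plexus sums and in the summed collagen level.

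The scRNA-seq table gives the average expression per cluster for the 6-OHDA and NDST3 groups, on a log scale whose base was taken as natural. It has 9 clusters and no cell counts or replicates, so no test was possible. Of the 44 collagen chain genes 22 had a mean above 0.1 in some cluster, as the average of the 2 groups, against 44.1% of all genes, and were called detected. Cells with very many detected genes were removed by the authors to limit multiplets, and doublets cannot be examined in cluster means. Cluster 5 held the highest mean of all 6 smooth muscle and all 8 pericyte markers, with Acta2, Tagln and Myl9 as leading genes, and is called smooth-muscle-like or pericyte-like. The paper's methods name cluster 5 fibroblasts instead, by markers that include Acta2 and the collagen chain genes Col3a1 and Col1a2. Cluster 7 held all 8 endothelial markers and is called endothelial-like, and cluster 6 held 6 of 8 microglia markers and is called microglia-like. Cluster 2 led for the 5 ependymal, all 6 detected choroid plexus, 6 of 7 detected astrocyte and 6 of 7 oligodendrocyte markers, and is left unnamed as a mixture. Of the 10 fibroblast markers 5 were detected, 3 highest in cluster 5 and 2 in cluster 2.

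By the average of the 2 groups, used for each ranking here, 13 of the 22 detected collagen chain genes peaked in cluster 2. This stands against 31.3% of all detected genes. Cluster 5 led for 5 genes, against 10.4%. Clusters 6 and 7 led for 2 genes each (9.09%), against 9.97% and 16.1%. Col4a1 and Col4a2 were highest in the endothelial-like cluster 7, and cluster 5 followed closely. In cluster 7 Col4a1 had a mean of 1.38 in 6-OHDA and 1.42 in NDST3, and in cluster 5 it had 1.33 in both. Cluster 5 led for Col1a2 (0.756 and 0.641), Col18a1 (0.617 and 0.619), Col4a5, Col4a6 and Col8a1. The fibrillar chains Col3a1 and Col1a1, with Col6a1, Col6a2 and Col12a1, were highest in cluster 2, where Col3a1 had 0.329 in 6-OHDA and 0.360 in NDST3. In cluster 5 Col3a1 had 0.333 in 6-OHDA and 0.179 in NDST3, so its 2 clusters were near equal in the 6-OHDA group. Col27a1, a fibrillar chain, and Col15a1 were highest in the microglia-like cluster 6, where Col27a1 had 0.876 and 0.788.

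**Figure D4:**
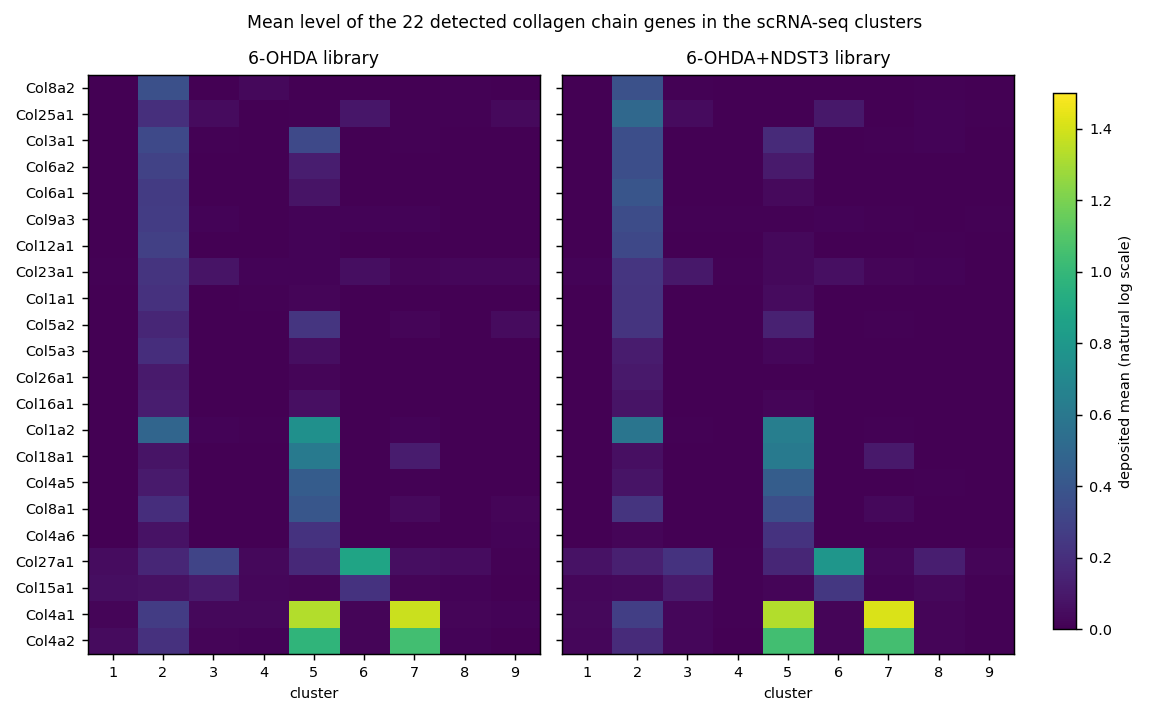
Deposited mean expression (scale treated as natural log, colour) of the 22 detected collagen chain genes in the 9 scRNA-seq clusters, for the 6-OHDA and the NDST3 group. The strongest entries are Col4a1 in clusters 7 and 5, with means between 1.33 and 1.42.

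In cluster 5 no collagen chain gene differed by 0.5 or more on the log2 scale between NDST3 and 6-OHDA, against 0.0188% of all genes (5 genes). Of the 22 detected collagen chain genes, 8 were higher and 14 lower in NDST3 in cluster 5. The split was 13 and 9 in cluster 2 and 4 and 18 in cluster 7. Their median log2 differences in clusters 5, 2 and 7 were -0.0098, 0.0122 and -0.0028. Over all detected genes these medians were -0.0003, 0.0009 and 0.0023. The collagen means summed to 6.33 in 6-OHDA and 5.97 in NDST3 in cluster 5, to 5.25 and 5.82 in cluster 2 and to 2.98 and 2.95 in cluster 7. The widest differences were of Col25a1 in cluster 2, at 0.202 in 6-OHDA and 0.507 in NDST3, and of Col3a1 in cluster 5, given above. Each group is 1 library, made after dissociation and myelin removal.

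The promoter tables of both chromatin assays held few collagen chain genes, 12 H3K27ac regions at 7 genes of 11424 regions and 6 ATAC regions at 5 genes of 3582, all within 1000 bases of a start site. Each group has 1 value with no replicate column, so the signals are given without a test, and ratios are log2 of signal plus 1. At Col4a1, 283 bases before the start, H3K27ac was 22.2 in sham, 6.45 in 6-OHDA and 13.4 in NDST3. This was the only 1 of the 12 regions that differed 2-fold between 6-OHDA and sham (log2 -1.64), against 12.3% of all regions, and it was lower in the group in which the transcript was higher. The ATAC signal of Col4a1, 689 bases before the start, was 30.2, 44.5 and 38.8 in the same order. For Col16a1, whose transcript rose, H3K27ac was 14.7, 8.20 and 9.84, and for Col25a1, whose transcript was lowest in 6-OHDA, it was 10.9, 19.2 and 19.7.

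On the scale of log2 of signal plus 1, the 1 H3K27ac region past 2-fold in NDST3 against 6-OHDA was that of Col9a3 448 bases before its start, against 11.1% of all regions. Its signal was 13.9 in sham, 11.4 in 6-OHDA and 32.3 in NDST3 (log2 1.43). A second Col9a3 region, 6 bases after the start, had 21.5, 24.9 and 40.5. In NDST3 against sham this gene (1.16) and Col5a1 (1.76) passed 2-fold, against 26.3% of all regions. The Col5a1 signal was 4.14 in sham, 8.20 in 6-OHDA and 16.4 in NDST3. Without the added 1, the ratio of NDST3 to 6-OHDA was 2.08 for Col4a1 and 2.0 for Col5a1. The median signal over all H3K27ac regions was 14.9, 16.4 and 22.9, so the NDST3 column was higher as a whole, by a median of 0.39 on the log2 scale against 6-OHDA and 0.53 against sham. Less these medians, Col9a3 was 1.04 and 0.63 and Col5a1 0.53 and 1.23 higher. The 3 regions each of Col8a1 and Col11a1 differed less than 2-fold in every comparison.

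Of the 6 ATAC regions, 1 passed 2-fold in 6-OHDA against sham, against 9.64% of all regions. It lies 234 bases before the start of Col24a1, with 22 in sham, 9.25 in 6-OHDA and 20.0 in NDST3, a log2 ratio of -1.17 against sham and of 1.04 in NDST3 against 6-OHDA, against 7.94% of all regions in the latter. A second Col24a1 region, 121 bases before the start, had 18.3, 12.8 and 17.3. Both signals and the transcript were lower in 6-OHDA than in sham, though the transcript did not pass its test. The RefSeq window of Col24a1 (GRCm38.p6, strand +) is shown because it covers these distances, although the regions could not be placed on this build by their coordinates, and none of the 3 motifs is in it.
Col24a1, chr3:145292222-145292521: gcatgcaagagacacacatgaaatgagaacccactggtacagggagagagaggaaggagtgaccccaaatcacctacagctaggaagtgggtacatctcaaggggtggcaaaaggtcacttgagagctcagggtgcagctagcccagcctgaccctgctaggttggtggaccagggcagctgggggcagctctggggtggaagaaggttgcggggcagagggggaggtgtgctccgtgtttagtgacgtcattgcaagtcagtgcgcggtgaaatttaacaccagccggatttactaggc
Col10a1, 944 bases before the start, had 7.90, 3.5 and 1.5 and passed in NDST3 against sham (log2 -1.83), against 14.3% of all regions. The remaining regions, of Col4a1, Col4a2 and Col5a3, stayed under 2-fold.

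**Figure D5:**
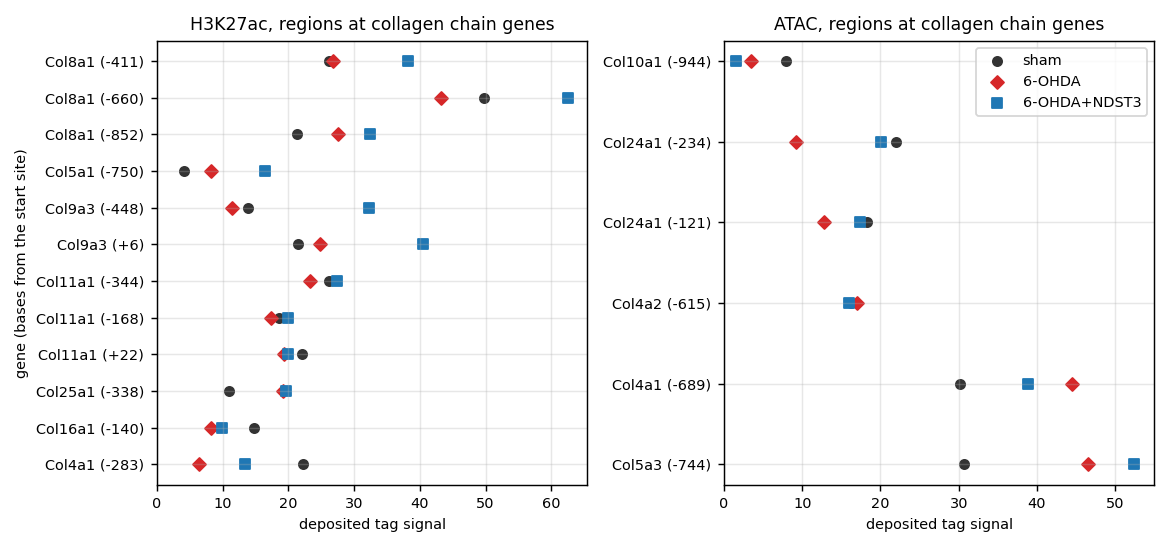
Deposited signal in sham, 6-OHDA and NDST3 for each of the 12 H3K27ac and 6 ATAC regions assigned to a collagen chain gene, labelled by gene and distance to the start site in bases. Col4a1 H3K27ac dips in 6-OHDA (6.45 against 22.2 in sham) and Col9a3 H3K27ac is highest in NDST3 (32.3).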

How the data were processed

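Bulk RNA-seq, H3K27ac CUT&RUN, ATAC-seq and scRNA-seq tables of sham, 6-OHDA and 6-OHDA plus NDST3 mouse brain were used. Groups were taken from the labels. The authors trimmed the RNA-seq reads with Trimmomatic, aligned them with HISAT2 to mm10 and deposited read counts and FPKM per gene from StringTie. The submitters' processing notes also name bcl2fastq, Trim Galore, Bowtie and Cell Ranger. The 5 deposited TPM columns were not used. The promoter tables hold a signal per region and group as the authors deposited it, with its scaling not given in the sources used here. The scRNA-seq table holds the authors' average per cluster and group, deposited on a scale treated here as natural log. Columns with the authors' own fold changes and p-values were not used.

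Differences between the 5 RNA-seq libraries were tested on the counts with edgeR 4.0.16 (quasi-likelihood, TMM factors, filterByExpr) in R 4.3.3, with 1 mean per group, 19300 of 20328 genes tested, a residual of 2 degrees of freedom and a biological coefficient of variation of 20.3%. The fit was tested on simulated data. SE is the log2 difference over the root of F. DESeq2 1.42.0 and limma 3.58.1 were alternatives, with other factors, filters, left-out libraries and replicate blocks. Adjusted p-values are Benjamini-Hochberg over all genes tested. Total counts of 51003699 to 70533326 bound counting error only.

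Promoter windows are from the RefSeq table of GRCm38.p6. Region coordinates of the chromatin tables did not lie on that build: of 9080 H3K27ac and 2570 ATAC regions with a start site of the same symbol, 346 and 271 were within 2000 bases of it, so only the deposited distances were used. A signal was compared as log2 of signal plus 1, and 4 scRNA-seq rows with a repeated symbol were left out.

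The members, gene lists and tests were chosen with earlier results of these data known. Named in full are the members called by either threshold, at most 12 of largest change per comparison, the members of highest level in each class, and the 2 to 4 largest called changes of each list. Counts of calls by library left out are given in the report where they change. These counts have no share of all genes called by the same rule beside them.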

Additional observations from a re-analysis of the deposited data

How the results depend on the processing

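The direction of the median difference was kept in 6-OHDA against sham and in NDST3 against 6-OHDA under each alternative run. Single genes were followed through these runs only for the called collagen chain genes of largest change in each comparison. None of the genes followed reversed, and the other named genes were not followed in this way. The count by the fold rule ran from 21 to 31 around 30 in the first comparison (22 to 31 with 1 library left out) and from 17 to 28 around 25 in the second (19 to 28 with 1 library left out). By limma on log2(FPKM + 1) the first count was 21, beside 1721 genes higher and 962 lower over all genes. The main fit called 2780 and 1951. With the replicate block the second count was 17, beside 1172 genes higher and 1078 lower, against 1408 and 1616 in the main fit. The adjusted counts moved more. In 6-OHDA against sham the edgeR count of 27 was 8 with the replicate block. Over all genes that block called 1008 higher and 788 lower, against 3625 and 3291 in the main fit. The calls lost without sham 1 or sham 2 are described above. In NDST3 against 6-OHDA the count of 15 was 24 by DESeq2, 9 by limma on log2(FPKM + 0.1), 0 with only the 2 groups compared and 0 with the replicate block. Over all genes DESeq2 called 2804 higher and 2428 lower and limma 1801 and 708, against 1748 and 1271 in the main fit. The 2 settings with 0 collagen chain genes called 0 genes of the whole table. The runs with 1 library left out are described above. In NDST3 against sham the fold rule count of 3 was 1 by limma on log2(FPKM + 1). Over all genes this limma run called 347 higher and 25 lower, against 923 and 208 in the main fit. With 1 library left out the fold rule count moved for collagen chain genes and for all genes. The adjusted count of 0 was 1 by DESeq2. Replicate numbers of sham and NDST3 share only a number: the deviations of same-numbered libraries had a correlation of -0.337. A crossed replicate block, chosen after seeing the data, gave an adjusted count of 25 in NDST3 against 6-OHDA. Over all genes it called 2506 higher and 2289 lower there. In NDST3 against sham it gave 5 by each rule. Beside these stood 1046 genes higher and 251 lower by the fold rule and 1024 and 170 by the adjusted rule. In NDST3 against sham Col9a1 lost its call in 5 settings, Col9a3 without sham 2 and Col19a1 without sham 1. With detection above 0.05 cluster 5 led for 9 genes in place of 5. At 1.5-fold 4 H3K27ac and 2 ATAC regions differed in 6-OHDA against sham in place of 1 each. For ATAC a pseudocount of 0.1 gave 2, a pseudocount of 5 gave 0, and centring on the median of all regions, also chosen after seeing the data, gave 2. For H3K27ac in NDST3 against 6-OHDA a pseudocount of 0.1 gave 2 in place of 1 and 1.5-fold gave 4, and in NDST3 against sham a pseudocount of 5 gave 1 in place of 2 and 1.5-fold gave 5. The cause of these shifts was not tested. Weak chains rest on few reads: Col6a4 had at most 14 counts in a library.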
